A study of Mus musculus with 12 samples.

Results

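Acute-phase proteins are plasma proteins that the liver makes in larger or smaller amounts when the body meets infection or injury. The group described here has 10 genes, chosen by name from the table of nascent RNA signal: the serum amyloid A genes Saa1, Saa2, Saa3 and Saa4, haptoglobin (Hp), hemopexin (Hpx), the orosomucoid genes Orm1 and Orm2, C-reactive protein (Crp) and lipocalin 2 (Lcn2). All 10 names were present among the 21490 gene symbols of the table. Of these symbols, 6284 had a signal above 6 reads per base pair (rpbp) in 1 library or more and entered the tests. Among the members 8 did so, and Saa3 and Lcn2 did not.

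The study addressed daily rhythms of transcription in mouse liver. Livers came from wild-type C57BL/6 male mice aged 3 to 6 months, housed under 12 hr of light and 12 hr of darkness for 2 weeks or longer. Tissue was collected at zeitgeber time (ZT, hours after lights on) 0, 4, 8, 12, 16 and 20, 2 replicates each, which gave 12 libraries. The study calls these samples independent, but how many animals made up a library is not given in the sources used here, and no time point served as a control. Nascent-Seq reads RNA that was still attached to chromatin in purified nuclei, so the values follow transcription in progress more closely than the stock of finished mRNA. Whole liver was used: a change in the number of cells of a type and a change in the RNA made per cell cannot be told apart.

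During an acute-phase response, cytokines such as interleukin 6 and interleukin 1 reach hepatocytes through their receptors and act through STAT3, NF-kB and the C/EBP factors on the promoters of these genes. Saa1 and Saa2 encode the inducible serum amyloid A proteins, apolipoproteins of high density lipoprotein, and Saa4 encodes the form made constitutively. Haptoglobin binds free haemoglobin and hemopexin binds free haem. Orm1 and Orm2 encode alpha-1-acid glycoproteins, carriers of small molecules in plasma, and lipocalin 2 binds the siderophores with which bacteria take up iron. In the mouse, Crp is only weakly inducible, in contrast to its human counterpart. The mice here were unchallenged, so the values describe the resting liver over the day.

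In these livers the time-point mean was highest at ZT16, 4 hr into the dark phase, for 6 of the 8 tested members (Saa1, Saa2, Hp, Hpx, Orm1 and Orm2), against 7.56% of all tested symbols. Saa4 was highest at ZT12 and Crp at ZT20. For 4 of the 8 (Saa1, Saa2, Hpx and Orm1) both ZT16 libraries lay above all 10 others, which was the case for 1.08% of the tested symbols. Saa1, Saa2 and Orm2 passed the limit of 6 rpbp only in ZT16 libraries, as did 112 of the tested symbols, so their maximum at ZT16 was fixed by how they entered the tests, and their calls in the comparisons that follow are not read as support. Of the 5 members that passed the limit outside ZT16, the mean was highest at ZT16 for 3 (Hp, Hpx and Orm1), against 6.21% of the 6172 symbols that passed it in the same way. Both ZT16 libraries were above the others for 2 of these 5 (Hpx and Orm1), against 0.907%. This comparison of ZT16 with the rest was chosen after the values were seen and is given as a description. The group differed in shape as well: Saa4 and Hp were high at both ZT12 and ZT16, whereas Crp had no consistent course over the day.

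**Figure D1:**
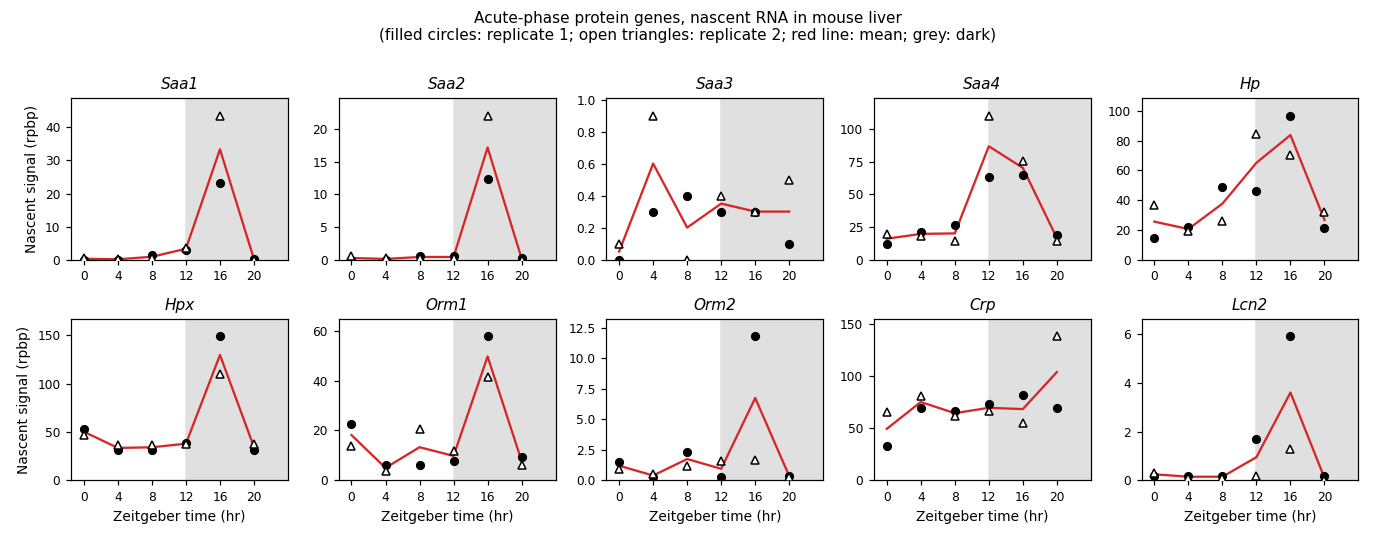
Nascent RNA signal (rpbp, vertical axis, from 0, with its own scale in each panel) of the 10 acute-phase protein genes against zeitgeber time (hr). Filled circles are replicate 1, open triangles replicate 2, the red line joins time-point means and grey marks the dark phase; Saa1, Saa2, Hpx and Orm1 have both of their highest points at ZT16, and Saa3 stays below 1 rpbp.

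The 4 serum amyloid A genes lie together on chromosome 7, within 42317 bases (mm9). Saa1 (chr7:53995871-53998350, minus strand) and Saa2 (chr7:54007203-54009684, plus strand) point away from each other, with 8853 bases between their start sites, and Saa4 (chr7:53983387-53987913) and Saa3 (chr7:53967368-53971046) lie on the minus strand beside Saa1. Each is a protein-coding gene of 4 merged exons. The 250 bases before the RefSeq start sites (GRCm38.p6) are shown for Saa1 and Saa2 because the signal of these genes moved together, for Saa4 because it lies in the same cluster with another time course, for Hpx because it shared the ZT16 maximum from another locus, and for Crp because it did not share it. The tables used here hold an entry for 8 members, not for Hp or Orm1. Capitals mark matches on either strand to TTNNGNAA, a C/EBP motif, and to AGGTCA, the core bound by ROR and REV-ERB receptors of the clock.
Saa1 promoter, chr7:46742981-46743230, minus strand: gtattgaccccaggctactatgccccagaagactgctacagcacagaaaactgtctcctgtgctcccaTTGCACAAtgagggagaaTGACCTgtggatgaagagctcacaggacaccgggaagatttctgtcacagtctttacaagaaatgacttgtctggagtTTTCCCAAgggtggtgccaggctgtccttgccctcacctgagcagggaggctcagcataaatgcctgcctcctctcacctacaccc
Saa2 promoter, chr7:46751583-46751832, plus strand: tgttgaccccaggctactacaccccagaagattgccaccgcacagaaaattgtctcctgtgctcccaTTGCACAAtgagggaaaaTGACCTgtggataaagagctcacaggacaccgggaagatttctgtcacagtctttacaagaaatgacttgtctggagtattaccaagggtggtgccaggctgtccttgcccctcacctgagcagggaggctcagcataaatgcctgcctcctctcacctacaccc
Saa4 promoter, chr7:46732604-46732853, minus strand: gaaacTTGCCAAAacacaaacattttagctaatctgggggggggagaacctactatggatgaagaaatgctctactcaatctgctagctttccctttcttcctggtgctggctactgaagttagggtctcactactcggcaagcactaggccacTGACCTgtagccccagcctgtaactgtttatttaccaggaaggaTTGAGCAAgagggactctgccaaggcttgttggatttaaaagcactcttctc
Hpx promoter, chr7:105600117-105600366, minus strand: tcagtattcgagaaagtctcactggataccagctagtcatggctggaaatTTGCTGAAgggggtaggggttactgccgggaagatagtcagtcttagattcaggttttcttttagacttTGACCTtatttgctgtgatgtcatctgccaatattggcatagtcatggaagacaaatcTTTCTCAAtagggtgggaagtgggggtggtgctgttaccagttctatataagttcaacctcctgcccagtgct
Crp promoter, chr1:172697806-172698055, plus strand: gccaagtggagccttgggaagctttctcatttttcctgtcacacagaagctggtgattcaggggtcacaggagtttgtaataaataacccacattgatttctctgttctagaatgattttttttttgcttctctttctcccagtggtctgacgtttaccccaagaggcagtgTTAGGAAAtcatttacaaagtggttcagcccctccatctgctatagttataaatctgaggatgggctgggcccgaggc

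The Saa1 and Saa2 promoters were nearly the same, with 238 identical bases in an alignment of 251 columns (94.8%), whereas Saa1 shared 49.5% of the columns with Saa4 and 52.2% with Saa3. A match to the C/EBP motif stood in all 8 member promoters, a motif that 36.9% of 32851 promoter windows of this length held. In Saa1 it began 182 and 86 bases before the start site, in Saa2 only the match at 183 was present, and in Hpx the matches began at 200 and 73. AGGTCA was found in 4 of the 8 (Saa1, Saa2, Saa4 and Hpx), against 14.0% of all windows. Saa1 and Saa2 hold it within nearly identical sequence, so these are not separate cases. The match began 164 bases before the start of Saa1, 165 before Saa2, 131 before Hpx and 96 before Saa4. None of the 8 held TTCNNNGAA, a STAT motif (7.02% of all windows), CACGTG, the E-box of CLOCK and BMAL1 (6.02%), or TTATNTAA, a D-box form (3.18%). The NF-kB motif GGNNTTTCC was present in Saa3 (4.93% of all windows), where it shared 4 bases with a C/EBP match, and CTGGGA, the core of the acute-phase response element, in Crp (27.0%). TATAAA stood in Crp and Orm2 (12.4%). These matches describe letters in a short window and say nothing of binding.

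Saa1 was almost silent outside the early night. It was listed at 0 and 0.5 rpbp at ZT0 (replicates 1 and 2), 0 and 0.2 at ZT4, 1.3 and 0.4 at ZT8, 3.0 and 3.6 at ZT12, 23.2 and 43.6 at ZT16, and 0.2 and 0 at ZT20. Both ZT16 libraries stood well above the rest, and both ZT12 libraries above the 8 that remained. The lower ZT16 value was 6.44 times the highest value of any other time. The time-point mean at ZT16 was 33.4 ± 14.4 rpbp (SD, n = 2), and ZT16 exceeded the mean of the other 5 time points by 4.34 ± 0.26 (SE) on the log2(rpbp + 1) scale.

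Saa2 shared the ZT16 maximum of Saa1 at a lower level. Its signal was 0 and 0.5 rpbp at ZT0, 0 and 0.2 at ZT4, 0.5 and 0.3 at ZT8, 0.5 and 0.3 at ZT12, 12.3 and 22.1 at ZT16, and 0.3 and 0 at ZT20. No library outside ZT16 passed 0.5 rpbp. Unlike Saa1, Saa2 was no higher at ZT12 than at other times. The ZT16 mean was 17.2 ± 6.93 rpbp, and the log2(rpbp + 1) difference from the other time points was 3.82 ± 0.23. The exons of Saa1 and Saa2 are alike but distinct: no 80-base stretch of Saa1 exons occurred elsewhere unchanged, and 18.8% of such stretches matched Saa2 within 2 mismatches, so a small part of each signal could belong to the other.

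Saa3, the serum amyloid A gene best known from macrophages and fat, was near 0 throughout, with a lowest value of 0, a median of 0.3 and a highest of 0.9 rpbp at ZT4. It was therefore not tested. The promoter of Saa3 held 4 C/EBP matches, the largest number among the 8, beside this absence of signal.

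Saa4, the constitutive form, was present at all times and was high at ZT12 as well as at ZT16. Its signal was 12.2 and 19.7 rpbp at ZT0, 21.4 and 18.0 at ZT4, 26.2 and 13.9 at ZT8, 63.3 and 110.3 at ZT12, 64.8 and 75.7 at ZT16, and 19 and 14 at ZT20. The 4 libraries of ZT12 and ZT16 lay above the other 8 without overlap. The mean was 86.8 ± 33.2 rpbp at ZT12 and 70.3 ± 7.71 at ZT16 (SD, n = 2), and the replicates of both times overlapped, so these do not give an order for the peak.

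Hp had a broader course. It was at 14.4 and 36.6 rpbp at ZT0, 22.1 and 19 at ZT4, 49.1 and 26.1 at ZT8, 45.9 and 84.2 at ZT12, 96.8 and 70.6 at ZT16, and 21.4 and 31.9 at ZT20. The ZT12 and ZT16 values overlapped, and so did ZT8 and ZT12. The median ratio of the higher to the lower replicate within a time point (1 rpbp added) was 1.64 for Hp, the largest of the 8 tested members, against 1.20 over all tested symbols. The gene (chr8:112099030-112103072, minus strand) has 5 merged exons.

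Hpx was abundant at every time. It gave 53.5 and 46.9 rpbp at ZT0, 30.9 and 36.1 at ZT4, 31.7 and 36.7 at ZT8, 38.7 and 37.1 at ZT12, 148.7 and 110.3 at ZT16, and 31.2 and 37.4 at ZT20. The lower ZT16 library was 2.06 times the highest of the other 10, and the mean at ZT16 was 3.41 times the mean of the rest. Replicates agreed closely, with a median ratio of 1.16, and 94.7% of the variance of Hpx lay between time points. Hpx (chr7:112740127-112748630, minus strand, 10 merged exons) is on the same chromosome as the serum amyloid A cluster, but far from it.

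Orm1 had its highest mean at ZT16 and the next highest at ZT0. The values were 22.5 and 13.8 rpbp at ZT0, 6.3 and 3.7 at ZT4, 6.1 and 20.5 at ZT8, 7.8 and 11.8 at ZT12, 57.7 and 41.6 at ZT16, and 9.3 and 6.2 at ZT20. The ZT8 replicates differed more than those of any other time, with a ratio of 3.03 after 1 rpbp was added, and replicate 2 of ZT8 lay within the range of ZT0. The lower ZT16 library was 1.85 times the highest of the others.

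Orm2 was low and its high value came from 1 library. It reached 11.8 rpbp in ZT16 replicate 1 and 1.7 in ZT16 replicate 2, while the other 10 libraries lay between 0.3 and 2.3. The replicate ratio at ZT16 was 4.74, and the second ZT16 library overlapped ZT8 (2.3 and 1.2). Orm1 (chr4:63005594-63009197) and Orm2 (chr4:63023483-63026912) are near copies, both on the plus strand: 27.5% of 80-base exon stretches of Orm1 occurred elsewhere, all of them in Orm2, and 37.2% matched Orm2 within 2 mismatches. The study kept only uniquely placed reads, so these stretches add little to either gene, and the split of signal between Orm1 and Orm2 is uncertain.

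Crp stood apart from the other members. It gave 33.0 and 65.9 rpbp at ZT0, 69.8 and 80.7 at ZT4, 67.0 and 62.1 at ZT8, 72.9 and 66.5 at ZT12, 81.7 and 55.2 at ZT16, and 69.7 and 138.3 at ZT20. The lowest and the highest value each came from a single replicate, at ZT0 and ZT20, whose partners lay within the range of the other times. ZT16 differed from the rest by -0.04 ± 0.29 on the log2(rpbp + 1) scale. The gene (chr1:174628187-174630097, plus strand) has 2 merged exons.

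Lcn2 stayed under the limit for testing but was not spread evenly. It was at 5.9 and 1.3 rpbp at ZT16 and at 1.7 and 0.2 at ZT12, and the other 8 libraries lay between 0 and 0.3. The highest values of ZT16 and ZT12 both came from replicate 1. No test was run on it.

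On a common scale per base of exon, the members differed greatly in level. At ZT16 the time-point means ran from Hpx (129.5 rpbp) through Hp (83.7), Saa4 (70.3), Crp (68.5), Orm1 (49.7), Saa1 (33.4), Saa2 (17.2), Orm2 (6.75) and Lcn2 (3.6) to Saa3 (0.3). The replicates of Hp, Saa4 and Crp overlapped, as did those of Crp and Orm1, of Orm1 and Saa1, and of Orm2 and Lcn2, so the order within these is not settled. Over the 10 other libraries the medians were highest for Crp (68.4), Hpx (36.9), Hp (29.0) and Saa4 (19.4), and they were 0.7 or lower for Orm2, Saa1, Saa2, Saa3 and Lcn2. Crp thus led the members by median outside ZT16, though not by mean at every time. The mean of Saa4 was above that of Crp at ZT12 (86.8 against 69.7 rpbp) and that of Hpx at ZT0 (50.2 against 49.45), with overlapping replicates. At ZT16 both Hpx libraries were above both Crp libraries, whereas those of Hp and Saa4 overlapped Crp.

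To find changes of any shape, the 6 time points were compared by a moderated F-test in limma, on log2(rpbp + 1) values and with Benjamini-Hochberg adjustment over all tested symbols. At an adjusted p under 0.05, 5 of the 8 members were called, against 7.65% of all tested symbols. They were Saa1 (adjusted p = 0.00067), Saa2 (0.000936), Hpx (0.00508), Saa4 (0.00984) and Orm1 (0.028). Hp (0.0682), Orm2 (0.164) and Crp (0.385) did not pass. The calls of Saa1, Saa2, Saa4 and Hpx held when any single library was left out. Orm1 lost its call without either ZT0 or either ZT12 library, ZT16 replicate 1, ZT4 replicate 2 or ZT20 replicate 2 (adjusted p from 0.0515 to 0.0674), and Orm2 gained one without ZT16 replicate 2 (0.0107).

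A rhythm was called by the criteria of the study, which ask how much of a gene's variance over the 12 values a 24-hr cosine holds (F24). The call needed F24 over 0.45, a permutation p under 0.05 without adjustment and a maximum above 1.5 times the minimum. Of the 8 members, 2 met these criteria, Saa4 and Hp, which is 25% against a background of 15.1%. Saa4 had an F24 of 0.661 (permutation p = 0.00532, adjusted p = 0.132) with the cosine peak at 13.5 hr, and Hp an F24 of 0.647 (p = 0.00827, adjusted p = 0.154) with the peak at 14.0 hr. Neither passed after adjustment of the permutation p. When the cosine terms were tested in limma on log2 values both did (adjusted p = 0.0383 and 0.0447), and no other member. Both kept the rhythm call when any single library was left out.

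Saa1, Saa2, Hpx and Orm1, with both ZT16 libraries above the rest, were not called rhythmic. F24 was 0.403 for Saa1 (permutation p = 0.00507, adjusted p = 0.132), 0.368 for Saa2 (p = 0.0275, adjusted p = 0.237), 0.361 for Hpx (p = 0.0842), 0.316 for Orm1 (p = 0.178), 0.188 for Orm2 (p = 0.43) and 0.082 for Crp (p = 0.778). A profile raised at 1 of 6 time points and flat elsewhere has an F24 of 0.4 by arithmetic, whatever its height, which is below the limit of 0.45. Among the 68 tested symbols with both ZT16 libraries above all others, the median F24 was 0.352 and 12 were called rhythmic, while 32 passed the time-point F-test. Saa1 met the rhythm criteria without either ZT12 or either ZT20 library (permutation p from 0.00256 to 0.00323), and Hpx without either ZT20 library (0.0183 and 0.0392). With log2(rpbp + 1) values in place of rpbp, Saa1 was called as well (F24 of 0.608, permutation p = 0.00471), which gave 3 members.

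**Figure D2:**
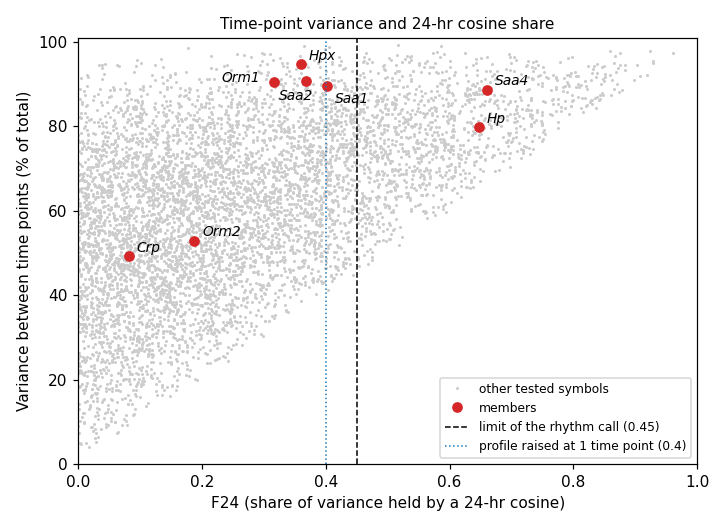
Share of the variance between time points (%, vertical axis) against F24 (horizontal axis) for each tested symbol (grey) and the 8 tested members (red). The dashed line is the limit of the rhythm call (0.45) and the dotted line the value of a profile raised at 1 time point (0.4); Saa1, Saa2, Hpx and Orm1 sit high on the plot, at 89.5% to 94.7%, but to the left of the limit.

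The spread between replicates was compared with the spread between time points. Between time points lay 89.5% of the variance of Saa1, 90.8% of Saa2, 88.7% of Saa4, 79.8% of Hp, 94.7% of Hpx and 90.5% of Orm1, but 52.9% of Orm2 and 49.2% of Crp. The median over the 8 was 89.1%, against 63.3% over all tested symbols. The members were also more variable in total, with a median coefficient of variation over the 12 libraries of 0.899 against 0.252. Saa1, Saa2 and Orm2 (2.12, 2.24 and 1.68) passed the limit for testing only at ZT16, which favours a high coefficient. The medians over the 8 are therefore given as a description. For the other tested members it was 0.84 (Saa4), 0.63 (Hp), 0.70 (Hpx), 0.96 (Orm1) and 0.34 (Crp). Replicates of 1 time point differed more as well, by a median ratio of 1.38 against 1.20.

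To set night against day, the mean of ZT12, ZT16 and ZT20 was compared with the mean of ZT0, ZT4 and ZT8 in the same limma fit. All 8 members had a positive difference, as had 2627 of the 6284 tested symbols. At an adjusted p under 0.05, 4 members passed, against 1.81% of all tested symbols called higher in the dark phase. Saa1, Saa2 and Orm2 passed the limit for testing only at ZT16, a dark time point, which favours a positive difference. The calls of Saa1 and Saa2 are therefore not read as support, which leaves Saa4 and Hpx. Saa1 was higher in the dark by 2.00 ± 0.20 (SE) on the log2(rpbp + 1) scale (adjusted p = 0.000818), Saa4 by 1.31 ± 0.21 (0.00925), Saa2 by 1.30 ± 0.17 (0.00524) and Hpx by 0.51 ± 0.12 (0.0486). The differences of Hp (0.97 ± 0.26, adjusted p = 0.0704), Orm1 (0.59 ± 0.28, 0.261), Crp (0.34 ± 0.21, 0.414) and Orm2 (0.28 ± 0.34, 0.694) did not pass. The call of Hpx was the least firm. It was lost on removal of any library other than ZT16 replicate 2 (adjusted p from 0.0622 to 0.134), and Hp gained a call without ZT0 replicate 2 or ZT8 replicate 1 (0.0468 and 0.0472). After the libraries were rescaled to their median ratio Hp was called in both comparisons, with an adjusted p of 0.0434 in the F-test and of 0.0458 for a dark minus light difference of 1.03.

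The dark minus light comparison was repeated without ZT16. When both ZT16 libraries were left out, an alternative added after the data were seen, no member was called in the dark minus light comparison: Saa4 kept a difference of 1.01 (adjusted p = 0.0597) and Saa1 of 0.69 (0.0949), Hp was at 0.63 (0.342) and Crp at 0.43 (0.424), while Saa2 was at 0.03, Hpx at -0.10, Orm1 at -0.21 and Orm2 at -0.36. The F-test over the 5 remaining time points still called Saa1 (adjusted p = 0.0111) and Saa4 (0.0158), both of which were higher at ZT12 than at the other times left. It no longer called Saa2 (0.65), Hpx (0.216) or Orm1 (0.193). Without ZT16, Saa1 met the rhythm criteria with an F24 of 0.736, and Saa4 and Hp still did (0.578 and 0.569). Outside ZT16, however, Saa1 was at most 3.6 rpbp, under the limit of 6, so its calls here are not read as support. Its values of 0 also met the criterion of maximum over minimum by themselves.

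The libraries differed in general level too. The median log2(rpbp + 1) deviation of a library from the mean of each symbol was lowest in ZT16 replicate 2 (-0.205). It was -0.085 in ZT16 replicate 1 and -0.090 in ZT0 replicate 1, and between -0.041 and 0.130 in the rest. Over all tested symbols the log2(rpbp + 1) difference of ZT16 from the other time points had a median of -0.17, and both ZT16 libraries were below all others for 472 symbols (7.51%) but above for 68. After the libraries were rescaled to their median ratio, 135 symbols were below and 200 above, and the members above numbered 5, with Hp added to the same 4. The median difference of the 8 members at ZT16 was 1.72, against -0.17. These 8 include Saa1, Saa2 and Orm2, which passed the limit for testing only at ZT16. Summed signal of 8 hepatocyte markers was 877 and 885 rpbp at ZT16 and 809 to 2025 rpbp elsewhere, with ZT0 replicate 1 lower still. These markers include Alb, Ttr and Apoa1, which are also on the list of negative acute-phase proteins, and Serpina1c, which is on the positive list. The sum is therefore not separate from those lists.

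**Figure D3:**
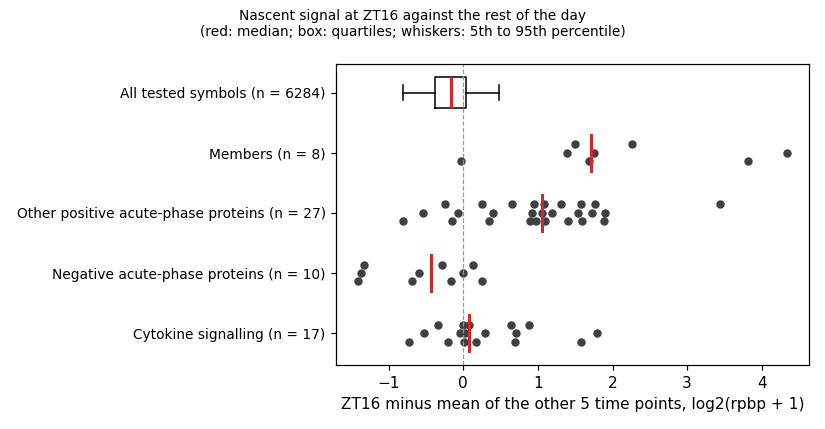
Difference of ZT16 from the mean of the other 5 time points on the log2(rpbp + 1) scale (horizontal axis) for all tested symbols (box with quartiles, whiskers at the 5th and 95th percentiles) and, as points, for the members and 3 lists of related genes, with red lines at the medians. The members have a median of 1.72, the other positive acute-phase proteins 1.05, the negative ones -0.44 and the signalling genes 0.08, against -0.17 over all symbols. The members include Saa1, Saa2 and Orm2, and the other positive acute-phase proteins include Mt2, which passed the limit for testing only at ZT16.

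Sequencing lanes differed with time: the ZT8 and ZT20 libraries were run in 2 lanes and the others in 1. Of the 8 members, Saa1, Saa2, Saa4 and Hpx were lower in the 2-lane libraries, with differences of -1.40, -0.92, -1.02 and -0.63 on the log2(rpbp + 1) scale (adjusted p = 0.0178, 0.0278, 0.0318 and 0.029 in limma), against 2.37% of all tested symbols. Lanes and these time points cannot be told apart. Within the 1-lane time points alone (ZT0, ZT4, ZT12 and ZT16) the F-test called Saa1, Saa2, Saa4, Hpx and Orm1, the 5 members called on all libraries, against 1.91% of all tested symbols. On these libraries 6 members met the rhythm criteria, against 17.0%. A profile raised at ZT16 and flat at the other 1-lane time points has an F24 of 0.667 by arithmetic, above the limit, so this count is not evidence of a rhythm. In the dark minus light comparison on these libraries Hp (1.68, adjusted p = 0.0264) and Orm1 (1.14, 0.0373) joined the 4, against 2.51% of all tested symbols called higher.

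Markers of other liver and immune cell types were read in every library. Of 10 neutrophil markers 7 were in the table, and all 7 were under 2 rpbp in every library. Mpo and Ltf were listed at 0 throughout, and S100a8 and S100a9 reached 0.2 in 1 library each. Their sum was 0.5 and 1.6 rpbp at ZT16 and 0.1 to 1.7 elsewhere. The highest single value was that of Camp, 1.4 rpbp in ZT16 replicate 1. The part of neutrophils in the result was not tested. The sum of 8 macrophage and Kupffer cell markers was 43.5 and 47.2 rpbp at ZT16, within the 21.6 to 56.7 of the other libraries. The highest of these was ZT8 replicate 1. With that library set aside, the sums at ZT16 and ZT12 (50.9 and 56.0) lay above all others (at most 36.7). Clec4f had this course (21.6 and 22.7 rpbp at ZT12, 20.5 and 17.9 at ZT16, at most 13.9 elsewhere), and so had Cd163. Cd68 and Emr1 did not. The summed markers of endothelial cells (19.3 and 20.3 rpbp at ZT16, 10.9 to 25.5 elsewhere), stellate cells (10.5 and 11.4, 7.7 to 13.3), cholangiocytes (0.8 and 1.6, 0.8 to 2.2) and lymphocytes (3.5 and 4.7, 2.8 to 12.2) did not stand apart at ZT16. In ZT8 replicate 1, Marco (20.5 rpbp) and Emr1 (17.3) were far above their values elsewhere (at most 1.8 and 5.1). The time-point F-test called the same 5 members without that library, and the part of these cells in the result was not tested.

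A wider list of positive acute-phase proteins was read in the same way. Of 34 listed genes 33 were in the table and 27 were tested, and 17 of the 27 had their highest time-point mean at ZT16 (63.0%, against 7.56% of all tested symbols). Of these 17, Mt2 passed the limit of 6 rpbp only in ZT16 replicate 2 (11.6 rpbp, at most 4.8 outside ZT16). Its maximum at ZT16 was thus fixed by how it entered the tests, and it is not read as support. The median difference of ZT16 from the rest over the 27 was 1.05 on the log2(rpbp + 1) scale. In limma's F-test 8 of 27 were called (29.6%, against 7.65%), 6 met the rhythm criteria (22.2%, against 15.1%), and 2 (Serpina1e and Lbp) were called higher in the dark phase (against 1.81%), with none lower (against 2.37%). Both ZT16 libraries were above all others for 6 of them (Fga, Itih3, C4b, Fgl1, Steap4 and Lrg1), against 1.08% of all tested symbols. For Serpina1b, another alpha-1-antitrypsin gene, both were below the others (16.5 and 7.7 rpbp, against 17.6 to 27.9), as for 7.51% of all tested symbols.

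Among the called genes of this list, those with the largest differences between time-point means had unlike courses. Itih3, a heavy chain of the inter-alpha-trypsin inhibitor family, was at 338.2 and 302.5 rpbp at ZT16 and between 29.6 and 213.2 in the other libraries, with its low at ZT8 (adjusted p = 0.015). C4b, a complement component, was at 112.7 and 141.3 rpbp at ZT16 and between 40.7 and 85.1 elsewhere (0.0189). C3, the central component of complement, had a maximum at ZT0 (322.3 and 190.3 rpbp) beside that at ZT16 (204.9 and 226.4), and lay between 31.4 and 98.3 at the other times (0.0413). Serpina1e, one of the mouse alpha-1-antitrypsin genes, resembled Saa4, with 66.3 and 112.3 rpbp at ZT12, 75.8 and 97.7 at ZT16, and 5.2 to 44.0 at the other times (0.0142). Serpina1e has close paralogs, so its signal is uncertain to the extent that reads could be shared. Fgl1, a liver-secreted fibrinogen-like protein named here after its values were seen, was at 36.1 and 74.5 rpbp at ZT16 and at most 13.7 elsewhere.

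The fibrinogen chains were only partly alike. Fga was at 128.3 and 192.7 rpbp at ZT16, above its other 10 libraries (at most 108.8), but its F-test did not pass (adjusted p = 0.0747). Fgb (148.0 and 339.2 rpbp at ZT16) and Fgg (113.9 and 262.2) were high at ZT16 in replicate 2 alone, and their adjusted p-values were 0.51 and 0.386. These genes were named after their values were seen.

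Genes of negative acute-phase proteins, whose levels fall in inflammation, did not share the ZT16 maximum by their time-point means. None of the 10 tested had its highest mean at ZT16. Only 7.56% of all tested symbols had, so this count does not set the list apart. The median difference of the 10 was -0.44 on the log2(rpbp + 1) scale, against -0.17 over all tested symbols. It was positive for 2, Trf (0.25) and Fetub (0.13), as for 1829 of the 6284 tested symbols. Both had their highest single library at ZT16, Trf in replicate 1 (409.2 rpbp, against 121.6 in replicate 2) and Fetub in replicate 2. Only Serpina6, which encodes corticosteroid-binding globulin, passed the F-test (adjusted p = 0.00795). It was at 25.8 and 36.5 rpbp at ZT8 and at 3.4 and 3.3 at ZT16, its lowest values, met the rhythm criteria with an F24 of 0.626, and was lower in the dark phase by -1.24 ± 0.19 (adjusted p = 0.0085), a direction called for 2.37% of all tested symbols. After the libraries were rescaled, its ZT16 values were no longer both below the others. Alb, albumin, gave 282.4 and 160.3 rpbp at ZT16, and 241.1 to 951.7 elsewhere, a difference that did not pass (adjusted p = 0.118).

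Among 32 genes of cytokine signalling to the acute-phase genes, 17 were tested and 4 passed the F-test (23.5%, against 7.65%): Il6ra, Il1r1, Cebpb and Socs3. Il6ra, the receptor subunit for interleukin 6, was at 40.5 and 44.1 rpbp at ZT12 and at most 15.7 elsewhere (adjusted p = 0.027). Il1r1, the receptor for interleukin 1, was at 20.9 and 19.5 rpbp at ZT12 and 21.5 and 52.3 at ZT16, and between 4.9 and 9.9 at the other times (0.0218). Cebpb, which encodes a C/EBP factor induced by interleukin 6, was at 41.9 and 25.4 rpbp at ZT12 and at 15.7 and 19.3 at ZT16, and between 4.7 and 13.3 at the others (0.0124). Socs3, the feedback inhibitor that STAT3 induces, was at 8.9 and 4.0 rpbp at ZT12 and 9.8 and 7.3 at ZT16, and between 1.0 and 2.3 at the others (0.0103). In each of these 4 genes the ZT12 libraries lay above those of ZT0, ZT4, ZT8 and ZT20, as they did for Saa4 and for Saa1. ZT12 was the commonest time of the highest mean, for 1727 of the 6284 tested symbols. The share of symbols with such a separation was not counted, and these 4 were picked by the F-test, so this is a description only. Il6ra, Il1r1 and Socs3 were also called higher in the dark phase, by 1.28 ± 0.24, 1.21 ± 0.22 and 0.86 ± 0.18 (adjusted p = 0.0211, 0.0191 and 0.027), which is 3 of 17 against 1.81% of all tested symbols.

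**Figure D4:**
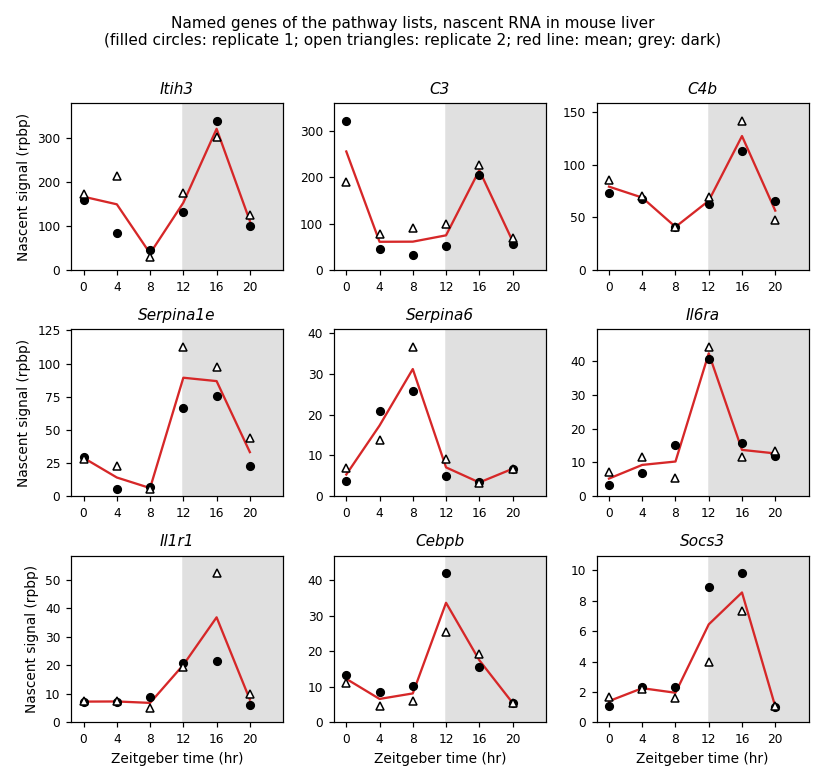
Nascent RNA signal (rpbp, vertical axis, from 0, own scale per panel) against zeitgeber time (hr) for the named genes of the lists of related genes. Symbols are as in the plot of the members; Il6ra and Cebpb have their highest means at ZT12, Il1r1 and Socs3 at ZT16 with ZT12 already raised, and Serpina6 is lowest at ZT16.

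The cytokines themselves were hardly seen in the liver. Il6 was at most 0.2 rpbp, Tnf at most 1.8 and Il1b at most 2.2, and none was tested. The transcription factors and kinases Stat3, Rela, Jak1, Tyk2, Nr3c1 and Hnf4a were tested and did not pass the F-test, with adjusted p-values between 0.121 (Stat3) and 0.655 (Jak1). Stat3 was at 14.3 and 19.9 rpbp at ZT16 and 5.5 to 15.2 elsewhere.

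The 3 symbols outside the group with the courses most like each member were taken by Pearson correlation of log2(rpbp + 1) over the 12 libraries, which share their normalization. For Saa1 they were AK006576 (r = 0.912), Il1r1 (0.910) and Slc39a14 (0.909), a zinc transporter. For Saa2 they were 8430415E04Rik (0.964), Serpina10 (0.942) and the chemokine Cxcl1 (0.897). For Hpx they were Tacc1 (0.891), Derl3 (0.886) and Fgl1 (0.860), and for Orm1 Xbp1 (0.872), Tacc1 (0.864) and B4galt1 (0.815). Those of Saa4 were Acvr2b (0.959), Chd7 (0.937) and Grina (0.936), and those of Hp were Dock1 (0.90), Tspan31 (0.867) and Rdbp (0.864). Orm2 had Wars (0.838), Gas6 (0.825) and Ccdc134 (0.816), and Crp had Sdc2 (0.883), Baat (0.851) and Wrnip1 (0.823). No symbol was shared between the lists of Saa4 or Hp and those of Saa1, Saa2, Hpx and Orm1. The lists of Saa1 and Saa2 shared none either, so lists this short do not divide the group.

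Within the group, the closest pair was Saa1 and Saa2 (Pearson r = 0.945 and Spearman's rho = 0.915 over the 12 libraries, given as a description). Saa2 and Hpx had r = 0.907 but rho = 0.479, and Hpx and Orm1 had r = 0.872 and rho = 0.727. Saa4 and Hp had r = 0.872 and rho = 0.846. Saa1 was about as close to Hp (r = 0.829, rho = 0.864) and Saa4 (0.814, 0.822) as to Hpx (0.836, 0.487). Crp had r between -0.39 and 0.22 with the other 7 tested members.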

How the data were processed

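Nascent RNA was measured in 12 mouse liver libraries, grouped by the time point and replicate of their labels (6 time points, 2 replicates each). The authors aligned reads to mm9 with TopHat (CASAVA 1.7 upstream), kept uniquely mapped reads and deposited a signal: coverage over the merged exons of a gene, per base pair and without regard to strand, scaled to equal reads per library and rounded to 1 decimal. Reads per gene are not given, so depth per value is unknown. Library sums lay between 118342 and 160545 rpbp. The authors also deposited, per gene, F24 (the fraction of variance in the 24-hr Fourier component), a phase score in hours and a permutation p-value, none of which was used.

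The table held 21490 symbols beside 27919 blank lines. Symbols entered the tests if 1 library or more exceeded 6 rpbp. F24 p-values came from 100000 one-sided permutations per symbol. limma 3.58.1 (R 4.3.3) was run on log2(rpbp + 1), a scale that understates the change of low genes, with Benjamini-Hochberg adjustment over all 6284 symbols. Python 3.11.15, numpy 2.4.6 and pandas 2.3.3 were used. P-values measure the spread between these samples, which may in part be technical. Scripts were tested on simulated data. Positions, strand and exons came from GENCODE M1 (mm9), and promoters from RefSeq (GRCm38.p6).

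The members, lists and tests were chosen with earlier results of these data known. All members were named. Of the other lists, up to 4 genes passing the F-test were named, by the largest difference between time-point means, and every other gene outside the group was named after its values were seen or was picked by its correlation with a member. The alternatives were thresholds of 3 and 12 rpbp or none, rescaled libraries, removal of GC trends, a pseudocount of 0.1 rpbp, log2 values for F24, adjusted permutation p, the cosine F-test, lane and replicate blocks, 1-lane libraries only, and each library left out. Some genes of the lists are not reported here.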

Additional observations from a re-analysis of the deposited data

How the results depend on the processing

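Each time-point mean rests on 2 replicates, which limits its precision, and genes under 1 rpbp rest on few reads. Of the 2 members called rhythmic, none was called with the adjusted permutation p in place of the unadjusted one, and 6 were called within the 1-lane time points, where a profile raised at ZT16 alone has an F24 over the limit by arithmetic. Leaving out single libraries gave 2 to 4 rhythmic members, 4 to 6 by the F-test and 3 or 4 in the dark minus light comparison. Without a threshold the F-test called 3 members (Saa1, Saa2 and Hpx), and with ZT16 left out 2. Of these 2, Saa1 would not have passed the limit without ZT16. In the dark minus light comparison 0 members were called with ZT16 left out and 2 (Saa1 and Saa4) with a pseudocount of 0.1 rpbp. The signs of Hpx (-0.10), Orm1 (-0.21) and Orm2 (-0.36) turned when ZT16 was left out, and that of Orm2 also without ZT16 replicate 1 (-0.10 to 0.65 with single libraries left out). The causes were not tested.

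Over all tested symbols, 951 were called rhythmic, 507 with a threshold of 12 rpbp, 2210 with none, 43 with adjusted permutation p and 163 by the cosine F-test (804 to 1269 with single libraries left out). The F-test called 481, but 133 without a threshold, 120 within 1-lane time points and 170 to 638 with single libraries left out. The dark minus light comparison called 263, but 175 with a threshold of 12 rpbp, 158 with ZT16 left out and 99 to 363 with single libraries left out. Both ZT16 libraries were above the others for 68 symbols, but for 200 after rescaling and 203 after removal of GC trends, and below for 472, 135 and 160. Serpina6 was below the others before but not after rescaling, which leaves 0 of the negative list, and stayed below after removal of GC trends (1). These ZT16 alternatives and the omission of ZT16 were chosen after seeing the data.

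The replicate number did not pair the samples: deviations of same-numbered libraries correlated between -0.12 and 0.32 over 15 pairs of time points, over 0.1 in 5. With the replicate block, 2 members were called rhythmic, 5 by the F-test and 3 in the dark minus light comparison, where Hpx was lost (adjusted p = 0.0534). Of 183, 167 and 167 single-member checks of the rhythm, F-test and dark minus light calls, 169, 153 and 138 kept direction and side of the threshold.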

Other observations

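Other tested symbols shared the ZT16 maximum of Saa1 and Saa2, and are named here after their values were seen. Among the 12 with the largest ratio of the lower ZT16 value to the highest other value (1 rpbp added to both) were, beside the members and Fgl1, the monooxygenase-like gene Moxd1 (20.5 and 43.8 rpbp at ZT16, at most 9.0 elsewhere), the magnesium transporter Slc41a2 (18.5 and 14.7, at most 6.4), the neutrophil-attracting chemokine Cxcl1 (29.5 and 30.2, at most 14.2), Serpina10, the protein Z-dependent protease inhibitor (82.1 and 136.1, at most 43.3), Derl3, a component of protein degradation at the endoplasmic reticulum (16.8 and 10.7, at most 5.5), and Lrg1, leucine-rich alpha-2-glycoprotein (16.9 and 16, at most 9.3).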
